A study of Arabidopsis thaliana with 4 samples.

Results

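The clade A protein phosphatases 2C (PP2Cs) of Arabidopsis thaliana, the negative regulators at the head of abscisic acid signalling, were followed across 4 seedling libraries. Their 9 genes were chosen by locus (ABI1, ABI2, HAB1, HAB2, AHG1, AHG3, HAI1, HAI2 and HAI3), and all 9 were found among the 24288 loci of the table. Without abscisic acid, these phosphatases hold SnRK2 kinases in an inactive, dephosphorylated state. When the hormone binds a receptor of the PYR/PYL/RCAR family, the receptor docks on the phosphatase and blocks it, and the freed kinases phosphorylate ABF/AREB transcription factors and ion channels. Several clade A PP2C genes are themselves induced by abscisic acid, which closes a negative feedback loop.

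RNA came from whole seedlings of the Columbia ecotype, 12 days old, raised on Murashige and Skoog medium containing 3% sucrose at 23 °C with 16 h light and 8 h dark. The groups were wild-type, a mutant of the arginine methyltransferase gene PRMT5 (written atprmt5), and the lines m90 and s215, in a study of pre-mRNA splicing in suppressors of atprmt5. The labels used here do not name the gene altered in m90 or s215, nor say whether these lines carry the atprmt5 mutation too. Each genotype had 1 library, so no test was possible, every difference is between libraries and not between genotypes, and brackets hold 95% exact counting intervals that leave out variation between plants.

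The s215 library stood apart from the others before any phosphatase gene was considered. Of 4 root markers, CASP1 and EXPA7 were at 0 in s215, and PYK10 was at 3.65 RPKM (reads scaled to gene length and library size) against levels of 1553, 1484 and 1367 in wild-type, atprmt5 and m90. The other, SCR, differed less, at 6.60 RPKM in s215 and at 10.5, 9.80 and 7.54 RPKM in wild-type, atprmt5 and m90. The summed level of these markers was 10.3 RPKM in s215, most of it SCR. It was between 1389 and 1581 in the other libraries, nearly all of it PYK10. The summed level of 3 leaf markers was 3291 RPKM in s215 and between 8892 and 10781 elsewhere. The labelled whole seedling was thus matched by leaf and root markers in wild-type, atprmt5 and m90. In s215 the leaf markers were present at a lower summed level. The root part of the label was not matched there by PYK10, CASP1 or EXPA7, and SCR alone does not settle it. Of 5 guard cell markers none was at 0, with sums between 89.9 and 112 RPKM. In s215 against wild-type, GC1 among them was lower (5.61 against 50.2 RPKM) and KAT1 higher (21.9 against 9.48 RPKM) by 2-fold or more. Of 5 seed markers, the summed level was 172 RPKM in wild-type and 43.5, 0.445 and 0.355 RPKM in atprmt5, m90 and s215, with 2 at 0 in each of the last pair (CRC and OLEO1 in m90, OLEO1 and SESA1 in s215). The part of these tissue markers in the results below was not tested. In whole seedlings, fewer cells of a type and less RNA per cell cannot be told apart.

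The family was dominated by AHG3 and ABI1. Their levels together made up between 60.3% and 64.7% of the summed RPKM of the 9 genes in the 4 libraries. That sum was 343 RPKM in wild-type and 231, 271 and 404 RPKM in atprmt5, m90 and s215, which puts it at 0.674 of wild-type in atprmt5, 0.792 in m90 and 1.18-fold of wild-type in s215. In wild-type the order of level was AHG3, ABI1, HAI2, HAB2, HAB1, ABI2, HAI1, HAI3 and AHG1. HAI2 and HAB2, and HAB2 and HAB1, did not differ there beyond counting error, while all other neighbours did. HAI2 moved most in this order, from rank 3 in wild-type and s215 to rank 4 in m90 and rank 6 in atprmt5. In atprmt5 its interval overlapped that of ABI2, and in m90 that of HAB1. AHG1 and HAI3 were the lowest pair in every library and overlapped in atprmt5, m90 and s215. In the s215 library, ABI1 stood above AHG3, and in the other libraries AHG3 stood above ABI1.

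**Figure D1:**
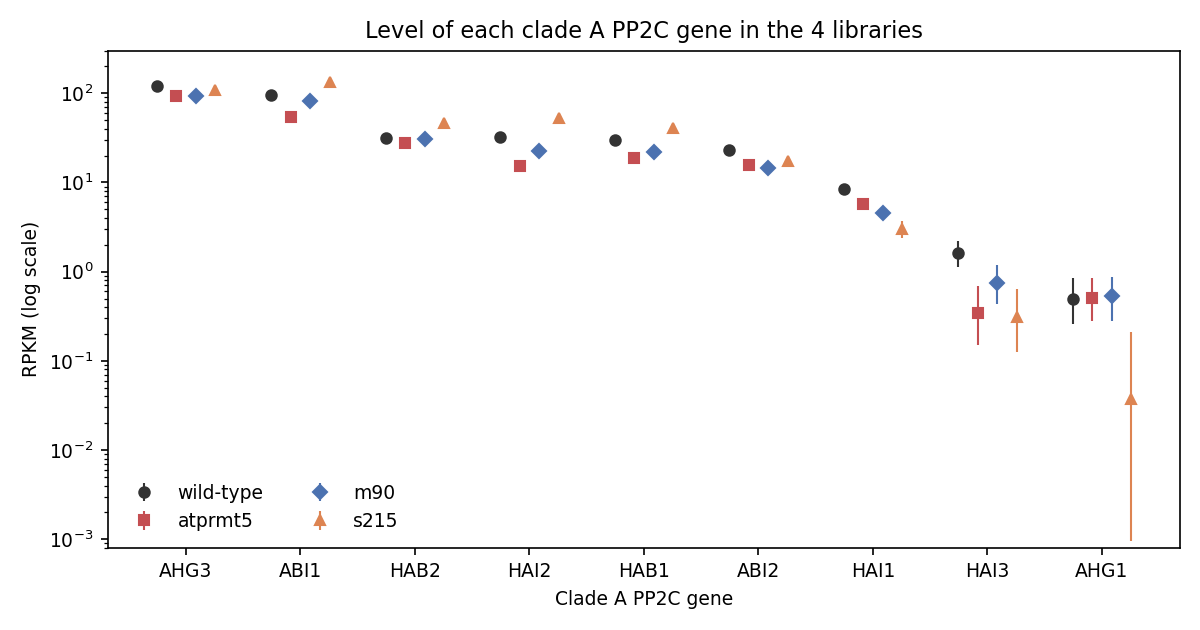
Level of each of the 9 genes in RPKM (log axis) in the wild-type, atprmt5, m90 and s215 libraries; points are the deposited values and bars their 95% exact Poisson intervals, which cover counting error only. AHG3 and ABI1 lie highest, HAI3 and AHG1 lie below 2 RPKM, and 5 genes have their lowest point in atprmt5. For AHG3 that point is within counting error of m90.

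**Figure D2:**
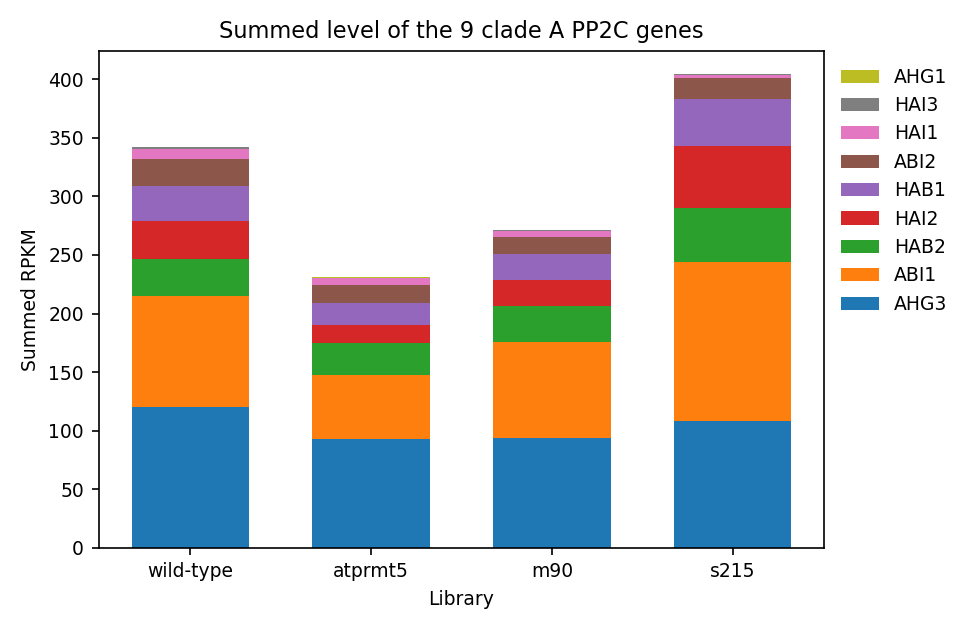
Summed RPKM of the 9 genes in each library, stacked by gene; each bar is 1 library and has no error bar. The bars reach 343 for wild-type and 231, 271 and 404 for atprmt5, m90 and s215, and AHG3 and ABI1 fill most of each.

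In the atprmt5 library, 8 of the 9 genes were below their wild-type level and AHG1, at very low level, was not separable from it. A value below wild-type was found for 50.3% of all tested loci in this pair. All 8 ratios had intervals under 1. The share of all loci with such intervals was not analysed here, and at high read numbers intervals leave out 1 at small differences. Only HAI2 reached a 2-fold difference on the log2((RPKM + 1)/(RPKM + 1)) scale, which gives 1 of the 7 genes tested, and this call was lost with a pseudocount of 5 RPKM or with upper quartile scaling. The background was 3.32% of 18688 loci lower by 2-fold or more and 1.8% higher, and 0 of the 7 genes were higher. The tested genes had a median log2 ratio of -0.54, beside -0.0031 for all tested loci. HAI3 had a lower ratio than HAI2 but was not among the tested genes. Tested here means averaging 1 RPKM or more across libraries, which AHG1 (0.392) and HAI3 (0.755) missed. Members were lowest in atprmt5 for 5 genes (ABI1, HAB1, HAB2, AHG3 and HAI2), in s215 for 3 (AHG1, HAI1 and HAI3) and in m90 for 1 (ABI2). They were highest in wild-type for 4 genes, in s215 for 4 and in m90 for 1 (AHG1). Some of these places lay within counting error. Intervals held 1 for AHG3 and ABI2 between m90 and atprmt5, and for HAI3 between s215 and atprmt5. AHG1 in m90 rested on 14.3 reads, beside 14 in atprmt5 and 13 in wild-type. The share of all loci highest or lowest in each library was not analysed here.

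ABI1 and its closest relative ABI2 are the phosphatases in which dominant mutations give plants insensitive to abscisic acid. ABI1 (AT4G26080, chromosome 4, 13219915 to 13222376, minus strand, 4 exons, TAIR10.1) was at 95.1 RPKM in wild-type and at 54.4, 81.7 and 135 RPKM in atprmt5, m90 and s215. The atprmt5 library was the low one and s215 the high one, and no pair of intervals overlapped. The ratio to wild-type was 0.572 in atprmt5 (0.541 to 0.605), 0.859 in m90 (0.817 to 0.903) and 1.42 in s215 (1.36 to 1.49). ABI2 (AT5G57050, chromosome 5, 23087122 to 23089631, plus strand, 3 to 5 exons by transcript) was at 23.0 RPKM in wild-type and at 15.5, 14.6 and 17.4 RPKM in atprmt5, m90 and s215. It was thus highest in wild-type, and atprmt5 and m90 could not be separated, at a ratio of 0.939 for m90 against atprmt5 (0.834 to 1.06). Its ratio to wild-type was 0.676 in atprmt5 (0.607 to 0.752), 0.634 in m90 (0.569 to 0.708) and 0.756 in s215 (0.681 to 0.840). In s215 the 2 genes of the pair therefore lay on opposite sides of wild-type.

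HAB1 and HAB2 form the second close pair, and HAB1 acts against abscisic acid responses in seeds and guard cells. HAB1 is also known for alternative splicing, in which a retained intron gives a shortened protein. The deposited table has 1 value per locus, so its forms were not analysed here. HAB1 (AT1G72770, chromosome 1, 27389948 to 27393327, plus strand, 5 annotated transcripts of 4 to 6 exons) was at 30.2 RPKM in wild-type and at 18.8, 22.3 and 40.7 RPKM in atprmt5, m90 and s215. Like ABI1 it was low in atprmt5 and high in s215, with no overlap between the 4 intervals. The ratio to wild-type was 0.621 in atprmt5 (0.571 to 0.676), 0.736 in m90 (0.679 to 0.797) and 1.35 in s215 (1.26 to 1.44). HAB2 (AT1G17550, chromosome 1, 6034270 to 6037398, plus strand, 4 or 5 exons) was at 31.7 RPKM in wild-type and at 27.6, 30.5 and 46.2 RPKM in atprmt5, m90 and s215. The first 3 libraries lay close together and s215 above them. In m90 the ratio of 0.964 (0.893 to 1.04) was not separable from 1, while in atprmt5 it was 0.871 (0.805 to 0.942) and in s215 1.46 (1.36 to 1.56).

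AHG3 and AHG1 are known from mutants whose seeds are hypersensitive to abscisic acid at germination. AHG3, also called PP2CA, acts in guard cells as well. AHG3 (AT3G11410, chromosome 3, 3583782 to 3585850, minus strand, 4 exons) was at 119.9 RPKM in wild-type and at 92.8, 94.0 and 108 RPKM in atprmt5, m90 and s215. It varied least of the 9 genes, 1.29-fold between its highest and lowest library. The ratio to wild-type was 0.774 in atprmt5 (0.735 to 0.814), 0.784 in m90 (0.745 to 0.824) and 0.902 in s215 (0.859 to 0.947), but the last passed to the other side of 1 under TMM scaling (trimmed mean of M values), at a log2 ratio of 0.029 instead of -0.15. AHG1 (AT5G51760, chromosome 5, 21026805 to 21029188, plus strand, 4 or 5 exons) was at 0.491 RPKM in wild-type and at 0.512, 0.528 and 0.0377 RPKM in atprmt5, m90 and s215. These levels rest on 13, 14, 14.3 and 1 reads. The first 3 libraries were not separable within wide intervals, from 0.455 to 2.41 for the atprmt5 ratio to wild-type of 1.04. The s215 ratio was 0.0768 (0.0018 to 0.511), so AHG1 was low in s215 but by an amount the depth does not fix. The summed seed markers gave another order, with m90 near s215, and their part in the AHG1 levels was not tested.

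HAI1, HAI2 and HAI3, named highly ABA-induced, are the genes of the clade known for strong induction by abscisic acid and by low water potential. They were the most varied genes of the family apart from AHG1, and they did not vary in the same direction. HAI2 (AT1G07430, chromosome 1, 2280746 to 2282828, minus strand, 3 exons) was at 32.1 RPKM in wild-type and at 15.2, 22.6 and 52.8 RPKM in atprmt5, m90 and s215, with no overlap between intervals. The ratio to wild-type was 0.474 in atprmt5 (0.424 to 0.528), 0.705 in m90 (0.640 to 0.775) and 1.65 in s215 (1.52 to 1.78). HAI1, which also takes part in leaf senescence (AT5G59220, chromosome 5, 23894404 to 23896939, minus strand, 3 or 4 exons), was at 8.42 RPKM in wild-type and at 5.68, 4.53 and 2.99 RPKM in atprmt5, m90 and s215. Here wild-type was the highest and s215 the lowest library. The ratio to wild-type was 0.674 in atprmt5 (0.549 to 0.824), 0.537 in m90 (0.428 to 0.664) and 0.355 in s215 (0.274 to 0.457). HAI3 (AT2G29380, chromosome 2, 12608675 to 12610350, plus strand, 3 exons) was at 1.61 RPKM in wild-type and at 0.348, 0.743 and 0.313 RPKM in atprmt5, m90 and s215, from 36.0, 8, 17 and 7 reads. Wild-type was high and the other 3 libraries low, at 0.216 (0.0865 to 0.471), 0.460 (0.242 to 0.841) and 0.194 (0.0729 to 0.442) of wild-type in atprmt5, m90 and s215.

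**Figure D3:**
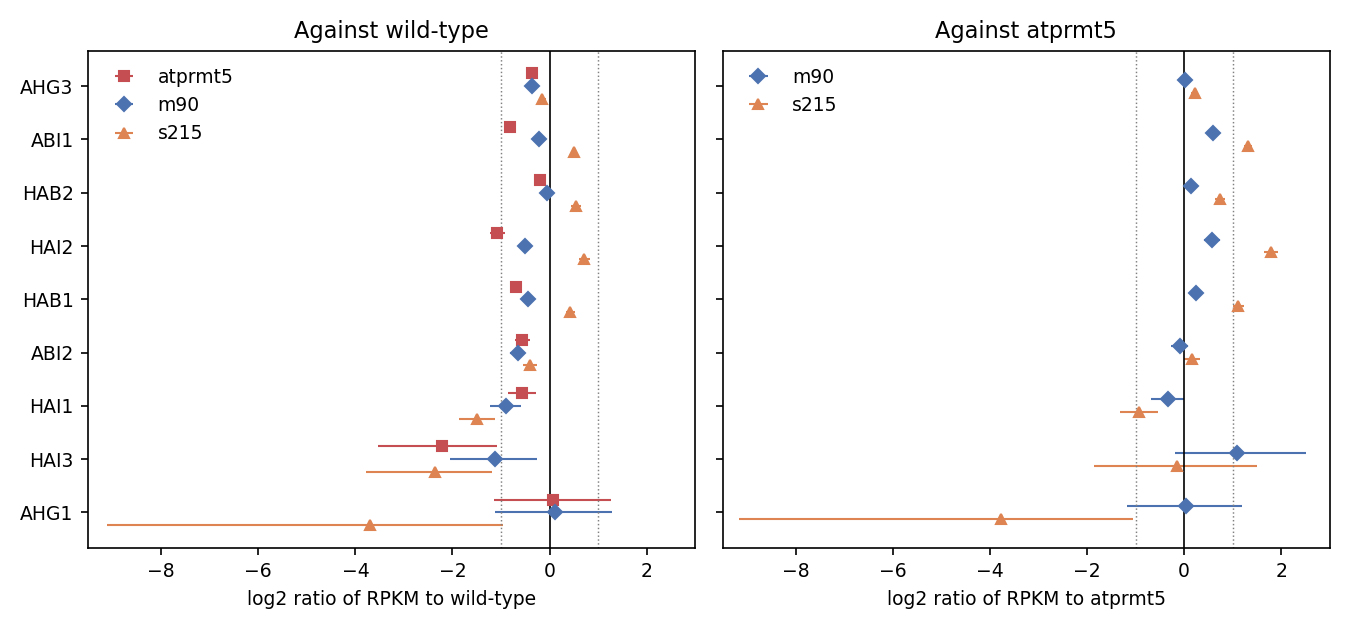
Log2 ratio of RPKM for each gene, against wild-type (left, atprmt5, m90 and s215) and against atprmt5 (right, m90 and s215); bars are 95% exact counting intervals, the solid line marks no difference and dotted lines mark 2-fold. In s215 against wild-type, ABI1, HAB1, HAB2 and HAI2 lie right of the solid line and ABI2, AHG3, HAI1, HAI3 and AHG1 left of it.

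The promoters are shown for the 3 HAI genes, whose levels went apart in s215, and for AHG3, the least varied gene. Each is the 250 bases before the annotated gene start, read 5′ to 3′ on the gene's strand from RefSeq's TAIR10.1 genome and annotation, a later release of the TAIR10 build used by the authors. Capitals mark ACGTG, the core of the abscisic acid response element bound by ABF/AREB factors, or its complement CACGT on the other strand. CACGTG counts as 2 overlapping matches.
HAI1, chr5:23896940-23897189, minus strand: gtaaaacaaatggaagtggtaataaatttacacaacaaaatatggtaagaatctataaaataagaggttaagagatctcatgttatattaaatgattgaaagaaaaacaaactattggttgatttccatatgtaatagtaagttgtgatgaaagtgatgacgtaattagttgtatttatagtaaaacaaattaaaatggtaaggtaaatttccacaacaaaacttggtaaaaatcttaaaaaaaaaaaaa
HAI2, chr1:2282829-2283078, minus strand: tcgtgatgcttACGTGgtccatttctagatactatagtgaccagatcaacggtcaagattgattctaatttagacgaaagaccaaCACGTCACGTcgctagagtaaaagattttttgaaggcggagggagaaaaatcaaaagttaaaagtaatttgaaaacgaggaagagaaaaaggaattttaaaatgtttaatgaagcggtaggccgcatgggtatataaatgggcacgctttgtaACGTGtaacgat
HAI3, chr2:12608425-12608674, plus strand: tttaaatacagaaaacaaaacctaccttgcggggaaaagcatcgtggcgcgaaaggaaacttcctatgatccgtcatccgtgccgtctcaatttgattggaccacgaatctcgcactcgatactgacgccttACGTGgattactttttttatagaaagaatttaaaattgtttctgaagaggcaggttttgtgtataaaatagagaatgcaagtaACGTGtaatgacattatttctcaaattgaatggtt
AHG3, chr3:3585851-3586100, minus strand: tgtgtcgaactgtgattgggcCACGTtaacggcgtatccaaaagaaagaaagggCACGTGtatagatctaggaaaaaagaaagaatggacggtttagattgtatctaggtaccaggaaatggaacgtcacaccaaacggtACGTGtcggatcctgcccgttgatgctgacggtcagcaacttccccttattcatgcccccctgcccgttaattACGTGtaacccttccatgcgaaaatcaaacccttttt
AHG3 had 5 matches and HAI2 had 4, the nearest starting 37 and 12 bases before the gene start. HAI3 and HAB2 had 2 each, AHG1 had 2 on 1 palindrome, and HAB1 had 1. HAI1, ABI1 and ABI2 had 0 in this window, although gene starts differ between annotations and no more than these letters was searched. The longer form ACGTGGC, searched on both strands, was found in AHG3 alone among the 9. Over 22855 promoters of protein-coding loci in the table, 24.1% held at least 1 ACGTG, 9.80% at least 2, and 3.78% at least 1 ACGTGGC.

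Relatives that are alike in sequence can share reads. Coding sequences were 79.5% identical between ABI1 and ABI2, 79.4% between HAB1 and HAB2 and 77.7% between HAI2 and HAI3, the 3 closest of 36 pairs. The longest run of identical bases in any pair was 33 (HAB1 and HAB2), against reads of 100 bases. In s215, HAB1 and HAB2 were 1.35-fold and 1.46-fold of wild-type, ABI1 and ABI2 1.42-fold and 0.756, and HAI2 and HAI3 1.65-fold and 0.194. The part of shared reads in these values was not tested.

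Against atprmt5, the m90 library had higher levels of ABI1, HAB1, HAB2 and HAI2, all under 2-fold. The ratio was 1.501 for ABI1 (1.42 to 1.59), 1.49 for HAI2 (1.32 to 1.67), 1.18 for HAB1 (1.08 to 1.30) and 1.11 for HAB2 (1.02 to 1.20). Intervals held 1 for the other 5 genes, among them AHG3 at 1.01 (0.960 to 1.07) and HAI1 at 0.797 (0.626 to 1.004). Of the 7 genes tested, 0 reached 2-fold in either direction, beside 3.63% of all loci higher and 2.34% lower. The median log2 ratio was 0.14, beside -0.04 for all loci. Against wild-type, 8 of the 9 genes were lower in m90, where 54.1% of all loci were lower. Intervals were under 1 for 7 of them, and the share of all loci with such intervals was not analysed here. None of the 7 genes tested was past 2-fold in m90 against wild-type, beside 2.61% of loci higher and 2.62% lower, and the median was -0.43 beside -0.04. The comparisons of m90 with atprmt5 and with wild-type share the m90 library.

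In s215, ABI1, HAB1, HAB2 and HAI2 were above wild-type and the other 5 genes below it. This is close to the share of all loci, of which 55.7% were below. AHG3, among the 5, passed to the other side under TMM scaling, at a log2 ratio of 0.029. All 9 intervals left out 1, and the share of all loci whose intervals do so was not analysed here. Of the 7 genes tested, 1 (HAI1) was lower by 2-fold or more, beside 24.3% of all loci, and 0 were higher by as much, beside 12.7%, so the tested genes differed 2-fold no more often than loci in general. The HAI1 call was lost with a pseudocount of 5 RPKM. The median log2 ratio of the tested genes was 0.42 and that of all loci -0.15, and relative to that shift the median was 0.56. Over all 9 genes the median was -0.15, since AHG1 and HAI3 were low. Against atprmt5, 3 of the 7 genes tested were at least 2-fold higher in s215, beside 12.7% of all loci, and 0 at least 2-fold lower, beside 23.2%. They were HAI2 at 3.47-fold (3.14 to 3.85), ABI1 at 2.49-fold (2.36 to 2.62) and HAB1 at 2.17-fold (2.001 to 2.35), the last of which was no longer called with a pseudocount of 5 RPKM or with upper quartile scaling. HAI2, ABI1 and HAB1 were also the genes lower by 1.5-fold or more in atprmt5 against wild-type, and all comparisons with atprmt5 share that library. HAI1 was at 0.527 of atprmt5 (0.401 to 0.689). The median there was 0.72, beside -0.12 for all loci. The summed root and leaf markers given above were low in this library.

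Of the receptors that block these phosphatases, 13 of 14 listed genes were in the table (PYL13 was not analysed here) and 9 were tested. In atprmt5 against wild-type 2 were at least 2-fold higher and 0 lower, beside 1.8% and 3.32% of all loci. PYL6 was at 4.80 RPKM in atprmt5, 1.56 in wild-type, 0.892 in m90 and 15.8 in s215. PYL4 was at 42.3 RPKM in atprmt5 and at 19.96, 14.7 and 22.5 in wild-type, m90 and s215. In m90 1 receptor gene was lower than wild-type, beside 2.62% of all loci. It was PYL5, at 3.52 against 11.3 RPKM. In s215 2 were higher, PYL6 and PYL9 (16.8 against 6.56 RPKM), and 1 lower, PYL5 at 4.23 RPKM, beside 12.7% and 24.3% of all loci. The receptor list thus held members past 2-fold in both directions.

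All 10 SnRK2 kinase genes were tested. On the log2((RPKM + 1)/(RPKM + 1)) scale, 0 passed 2-fold in either direction in atprmt5 or m90 against wild-type. Of all loci, 1.8% were higher and 3.32% lower in atprmt5, and 2.61% and 2.62% in m90. Without the pseudocount, SNRK2.9 was at 0.477 of wild-type in atprmt5 (0.392 to 0.582), at 6.27 against 13.1 RPKM. In s215, SNRK2.8 was higher, at 68.1 against 13.2 RPKM, beside 12.7% of all loci. SNRK2.9 (0.132 against 13.1 RPKM) and SNRK2.5 (6.86 against 15.1) were lower in s215, beside 24.3% of all loci. The kinases most strongly activated by abscisic acid, SNRK2.2, SNRK2.3 and SNRK2.6, were not past 2-fold against wild-type in any library. SNRK2.6, the guard cell kinase also called OST1, was at 16.6 RPKM in wild-type and at 15.1, 11.8 and 9.95 RPKM in atprmt5, m90 and s215. Of 7 tested transcription factor genes, 0 passed 2-fold by the same rule in atprmt5 or m90, beside the shares of all loci given above. Without the pseudocount, EEL was at 0.436 of wild-type in atprmt5 (0.262 to 0.685), at 2.12 against 4.85 RPKM. In s215 1 of the 7 was higher, beside 12.7% of all loci, and 0 lower, beside 24.3%. It was ABI5, a regulator of germination and early growth, at 23.9 against 4.17 RPKM. ABI4 was not analysed here.

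For the supply of the hormone, 7 of 10 synthesis genes in the table were tested. NCED3, the stress-induced step that cleaves carotenoids, was lower in atprmt5 (3.12 RPKM) and s215 (2.91) than in wild-type (14.8) and m90 (15.7). ABA1, which encodes zeaxanthin epoxidase, was lower in s215 alone among the lines by the 2-fold rule, at 129.5 against 344 RPKM. No other tested synthesis gene passed 2-fold against wild-type on the log2((RPKM + 1)/(RPKM + 1)) scale. Of the 7, 1 was thus lower in atprmt5 and 2 in s215, beside 3.32% and 24.3% of all loci. In these libraries 0 were higher, beside 1.8% and 12.7%. In m90 0 passed in either direction, beside 2.61% of all loci higher and 2.62% lower. Without the pseudocount, AAO3, which encodes abscisic aldehyde oxidase, was 2.14-fold of wild-type in s215, at 11.5 against 5.37 RPKM. NCED9, not tested at its low level, was at 0.029 against 0.349 RPKM in s215, from 1 and 12 reads. NCED5, also not tested, went the other way, at 0.596 RPKM in s215 (10.5 reads) against 0 in wild-type. NCED6 was not analysed here. Of the 4 genes for the CYP707A hydroxylases that break the hormone down, CYP707A3 was at 36.3 RPKM in wild-type and at 4.87, 65.8 and 4.75 RPKM in atprmt5, m90 and s215. By the 2-fold rule it was the 1 breakdown gene lower in atprmt5, beside 3.32% of all loci. CYP707A1 was also lower in s215, at 0.894 against 12.4 RPKM, beside 24.3% of all loci. Without the pseudocount, CYP707A4 was at 0.401 of wild-type in atprmt5 and 0.459 in s215, and CYP707A2 at 0.473 in s215. All 4 breakdown genes were below wild-type in atprmt5 and in s215, where 50.3% and 55.7% of all loci were below. Their intervals were under 1, and the share of all loci with such intervals was not analysed here. In m90, 0 of these 4 genes passed 2-fold in either direction, beside 2.61% of all loci higher and 2.62% lower. NCED3 and CYP707A3 were thus both low in atprmt5 and s215 and not in m90, whereas ABI1, HAB1 and HAI2 were low in atprmt5 and high in s215.

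ATHB12 and ATHB7 encode homeodomain-leucine zipper factors known to act on clade A PP2C genes. ATHB12 was at 84.3 RPKM in wild-type and at 39.0, 86.3 and 193 RPKM in atprmt5, m90 and s215, low in atprmt5 and high in s215 as ABI1, HAB1 and HAI2 were. ATHB7 was not past 2-fold in any library, at 421, 509, 303 and 353 RPKM in the same order. Of 4 genes for ubiquitin ligases that act on these phosphatases, 0 passed 2-fold in atprmt5 or m90 against wild-type. Of all loci, 1.8% were higher and 3.32% lower in atprmt5, and 2.61% and 2.62% in m90. In s215, 2 of the 4 were higher and 0 lower, beside 12.7% and 24.3% of all loci. The higher ones were PUB13 (141 against 49.7 RPKM) and RGLG5 (31.4 against 3.03 RPKM).

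Among 12 output genes of the pathway, 2 were at least 2-fold lower in atprmt5 and 0 higher, beside 3.32% and 1.8% of all loci. In m90 1 was higher and 1 lower, beside 2.61% and 2.62%. In s215 3 were higher and 5 lower, beside 12.7% and 24.3%. RD29B was at 37.3 RPKM in wild-type and at 29.04, 5.79 and 1.05 RPKM in atprmt5, m90 and s215, and GOLS2 was at 79.7, 56.0, 45.4 and 705 RPKM. RD26 was at 34.6, 7.92, 18.7 and 16.2 RPKM and P5CS1 at 410.3, 532, 430 and 77.6 RPKM. The outputs lay on both sides of wild-type in s215, as the phosphatase genes and loci in general did. Those named above had the largest differences of the list. Others differed little in s215, with RD22, COR47 and ERD10 at 1.04, 0.934 and 0.996 of wild-type.

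Phosphatases of another clade served as a comparison. Of 4 AP2C genes (clade B, which act on mitogen-activated kinases), 2 were tested. AP2C1 was at 80.02 RPKM in wild-type and at 12.1, 184 and 9.20 RPKM in atprmt5, m90 and s215, a wider range than any tested clade A gene. AP2C4 was at 2.19, 2.93, 3.36 and 3.93 RPKM and did not pass 2-fold.

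**Figure D4:**
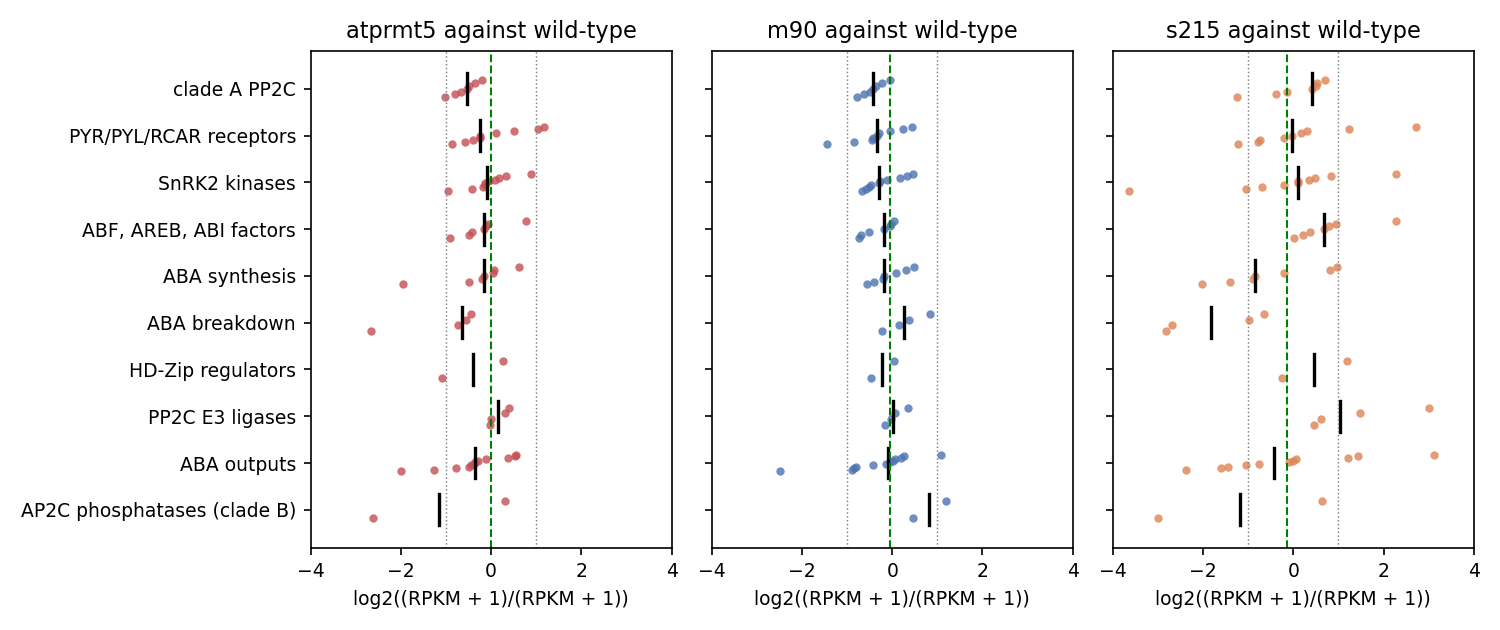
Log2((RPKM + 1)/(RPKM + 1)) against wild-type for the tested members of each list in atprmt5, m90 and s215; each point is 1 gene, black bars are list medians, the green dashed line is the median of all 18688 tested loci and dotted lines mark 2-fold. The 7 tested clade A PP2C genes all lie left of 0 in atprmt5, with a median of -0.54, and fall on both sides in s215, with a median of 0.42. RD29B in s215, at -4.22, lies beyond the axis and is not shown.

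Loci whose pattern over the 4 libraries was most like that of ABI1, by Euclidean distance of centred log2(RPKM + 1), were RPP5 (distance 0.058), RHA1B (0.060) and AGO7 (0.071). For HAI1 they were AT3G13240 (0.089), RALFL31 (0.089) and CRL (0.095). With 4 libraries such likeness is common: 499 tested loci lay within a distance of 0.5 of ABI1 and 973 of HAI1.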

How the data were processed

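Expression was measured once in each of 4 genotypes, and libraries were grouped by the genotype label. The values are RPKM, and the authors deposited them for 24288 loci in a single table. Per the submitters' processing notes, TopHat2 2.0.11 and build TAIR10 were used. Per the labels' protocols, libraries were strand-specific and made by a SMART method. The counting program, its use of strand and its handling of multiply matching reads were not given in the sources used here.

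Ratios were computed as log2((RPKM + 1)/(RPKM + 1)) over 18688 loci averaging 1 RPKM or more, with a pseudocount that understates changes of low genes, and called at 2-fold. With 1 library per genotype no p-value was computed. RPKM times annotated length gave the value of 1 read and scaling totals between 17350612 and 17901204 reads. For each member, a length was found at which all 4 values were whole bases of 100-base reads within 1e-05. It was 86.0% to 106% of the nearest annotated transcript. The smallest such length was used, and the tested members had between 84.9 and 4780 reads. Fractional reads were rounded. Ratios have Clopper-Pearson intervals and levels exact Poisson intervals (95%). Both cover counting error only, since, without molecular identifiers, reads are no independent molecules. The steps were tested on simulated data.

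The members and lists were chosen with earlier results of these data known. All 9 members are named. Of other lists, genes past 2-fold against wild-type were named, at most 4 per list, with exceptions named for their role: SNRK2.2, SNRK2.3, SNRK2.6, ATHB7, AP2C4 and absent loci. AAO3, NCED5, NCED9, EEL, CYP707A2, CYP707A4, RD22, COR47 and ERD10 were named after their values were seen. Loci of like pattern were the 3 nearest. Alternatives covered the pseudocount, the minimum, the scaling and the fold. Promoters and coding sequences came from RefSeq's TAIR10.1. Python 3.11.15, numpy 2.4.6, pandas 2.3.3 and scipy 1.17.1 were used.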

Additional observations from a re-analysis of the deposited data

How the results depend on the processing

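With 1 library per genotype no replicate could be left out. No paired analysis was possible because each genotype had 1 library and no test was made. In atprmt5 against wild-type, the count of 1 lower gene (HAI2) became 0 with a pseudocount of 5 RPKM or with upper quartile scaling, and 3 at a 1.5-fold threshold (ABI1, HAB1 and HAI2). That 1 call lies close to the 2-fold limit. At 1.5-fold, m90 against wild-type had 2 lower genes, s215 against wild-type had 1 higher gene, and s215 against atprmt5 had 1 lower gene. The 1 lower gene in s215 against wild-type (HAI1) became 0 with a pseudocount of 5 RPKM. The s215 median against wild-type reversed to -0.15 without a minimum on the mean, because AHG1 and HAI3 then enter. It was 0.56 when centred on all loci and 0.59 with TMM scaling. The s215 median against atprmt5 was 0.22 without a minimum, 0.84 when centred and 0.90 with TMM scaling. In s215 against atprmt5, the 3 higher genes became 2 with a pseudocount of 5 RPKM and with upper quartile scaling, where the HAB1 call ended. Counting these, the other 111 values computed under alternatives stayed within 1.5 times the count or within the counting interval of the median gene, including a mean taken over the 3 libraries without s215, an alternative chosen after seeing the data. HAI3 in s215 against atprmt5 changed sign with TMM scaling, at a log2 ratio of 0.028 instead of -0.15. Depth limits AHG1 and HAI3, which had at most 14.3 and 36.0 reads in a library.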
